A study of Mus musculus with 30 samples.

Results

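The genes described here are Dio3, which encodes the type 3 deiodinase, its neighbours in the imprinted Dlk1-Dio3 domain of mouse chromosome 12 (Dlk1, Meg3, Rtl1, Rian and Mirg), the opposing deiodinase gene Dio2, and the thyroid hormone receptor gene Thra. These 8 genes were listed by name and looked up among the 29861 genes of the expression table through their Ensembl identifiers. Of the 8, 5 had a row and 4 (Dio3, Dio2, Dlk1 and Thra) passed the filter on low values. Dio3 was put on the list because its level was at least 2-fold lower than in DMSO with all 8 compounds of the study, so its differences from DMSO are given as a description, without a test. The question asked of the other genes was whether they moved with it.

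RNA was sequenced from CCG-HTA-1, a primary tail fibroblast line from UMHet3 mice, a genetically mixed stock, at passage 4. The culture medium had high glucose and no pyruvate, oxygen was ambient, and cells were collected 48 hours after addition of a compound or of the solvent DMSO alone. All groups shared that line, passage, medium and time. The mice were 5 to 8 weeks old per the labels, except for Dihydrorotenone replicate 1, which is labelled 8 to 11 weeks. Each of the 8 compounds had 3 libraries and DMSO had 6, which made 30. The compounds were Antimycin A and Dihydrorotenone, inhibitors of the mitochondrial respiratory chain, Diphenyleneiodonium Cl, which inhibits flavoenzymes, Cardamonin, a chalcone from plants, Clofilium tosylate, which blocks potassium channels, Podofilox, which prevents tubulin assembly, and the compounds labelled BerberineA and AEG 3482. Doses are not in the labels used here. All libraries came from 1 cell line, so the p-values below measure only the spread between these libraries.

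Thyroid hormone acts in a cell according to how much of the active form, triiodothyronine, is present there. The type 2 deiodinase, the product of Dio2, makes triiodothyronine from thyroxine, and the type 3 deiodinase, the product of Dio3, inactivates both hormones. Both enzymes are selenoproteins, and Dio3 is known for high activity in placenta, fetal tissues, skin and proliferating cells. In the imprinted domain, Dlk1, Rtl1 and Dio3 are expressed mainly from the paternal chromosome, whereas Meg3, Rian and Mirg are non-coding transcripts of the maternal chromosome that host many small RNAs.

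Levels are given in TPM, a unit of transcript abundance that is scaled for transcript length and for the total of each library. Between 12229 and 12700 genes per library reached 1 TPM. TPM values do not keep the depth of a library, which is therefore unknown, and no counting interval can be given. All 10 fibroblast marker genes were present, with a summed level of 9759 to 11280 TPM in DMSO and 3806 to 4819 TPM with Cardamonin, the lowest of the groups. The keratinocyte marker Krt5, the muscle marker Myod1 and the adipocyte marker Plin1 were at 0 in all libraries, but other markers of the same lists were not. The keratinocyte, endothelial, cartilage and adipocyte lists each had 1 marker with a mean of at least 1 TPM, and the muscle and Schwann lists had 0. The summed level in DMSO was 17.2 to 28.6 TPM for the adipocyte markers and 5.42 to 8.71 TPM for the endothelial ones. Of 5 macrophage markers, 4 had a mean of at least 1 TPM, and their part is given below beside Dio3. The libraries were numbered consecutively within each group. Whether these numbers follow the order of processing is not given in the sources used here. If they do, that order and the treatment cannot be told apart.

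The sequences just before the RefSeq start sites of the deiodinase genes and of Dlk1 are shown because they hold the motifs described below, or lack them. They are from RefSeq, build GRCm38.p6, read 5′ to 3′ along the strand of the gene. The RefSeq and GENCODE starts are the same base for Dlk1 but differ for the deiodinase genes. The RefSeq start of Dio3 lies 162 bases inside the GENCODE gene, so the Dio3 stretch lies within the gene by GENCODE, and the RefSeq start of Dio2 lies 600 bases upstream of the GENCODE one. Capitals mark the TATA box letters TATAAA and the cyclic AMP response element TGACGTCA. The Dio3 stretch is limited to 30 bases at chr12:110279187-110279216 on the plus strand, the Dio2 stretch is the 250 bases at chr12:90739039-90739288 on the minus strand, and the Dlk1 stretch is the 250 bases at chr12:109452573-109452822 on the plus strand.
Dio3: tcaagctttgacTATAAAttgagctcccag
Dio2: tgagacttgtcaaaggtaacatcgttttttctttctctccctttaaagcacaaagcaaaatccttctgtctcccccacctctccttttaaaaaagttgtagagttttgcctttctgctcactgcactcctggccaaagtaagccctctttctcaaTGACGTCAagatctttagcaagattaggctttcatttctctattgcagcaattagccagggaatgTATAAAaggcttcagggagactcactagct
Dlk1: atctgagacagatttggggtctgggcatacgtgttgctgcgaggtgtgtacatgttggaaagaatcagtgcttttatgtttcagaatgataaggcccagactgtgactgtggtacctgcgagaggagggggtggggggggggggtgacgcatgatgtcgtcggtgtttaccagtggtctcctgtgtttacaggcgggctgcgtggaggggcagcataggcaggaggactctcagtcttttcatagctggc

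Both deiodinase genes had TATAAA close to the RefSeq start, 31 bases upstream in Dio3 and 30 bases upstream in Dio2. Counted from the GENCODE starts, the same letters lie 131 bases downstream in Dio3 and at -630 in Dio2. Dio2, known as a cyclic AMP-inducible gene in brown fat, also had TGACGTCA 95 bases upstream of the RefSeq start. The Dlk1 window held neither. Of 32851 windows of 300 bases around RefSeq starts, searched on both strands, 13.6% held TATAAA and 1.79% held TGACGTCA. A search for the AP-1 letters TGANTCA (in 7.81% of windows), the GLI letters TGGGTGGTC (0.253%) and the antioxidant response element letters TGACNNNGC (12.4%) found no match in the windows of Dio3, Dio2 or Dlk1. A window of Meg3 held TATAAA 25 bases upstream on the plus strand and 29 bases upstream on the minus strand, with TGACGTCA 57 bases upstream, and those of Rian and Mirg held none of the 5 motifs. A match describes letters only and no binding was measured.

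Dio3 (ENSMUSG00000075707) lies at chr12:110279068-110281097 on the plus strand of GRCm38. In the 6 DMSO libraries its level ran from 43.1 TPM through a median of 60.0 to 84.0 TPM. It was 23.0, 22.4 and 24.6 TPM in the 3 AEG 3482 libraries, the highest of the treated ones. All 24 treated libraries were below all 6 DMSO libraries.

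With Dihydrorotenone the Dio3 level was 21.5, 18.5 and 17.4 TPM in the 3 libraries. With Diphenyleneiodonium Cl it was 15.4, 17.8 and 21.9 TPM. With BerberineA it was 15.1, 17.9 and 20.1 TPM. These 3 compounds left Dio3 at much the same level, the ranges of neighbours in that order overlapping. Clofilium tosylate gave 12.7, 14.8 and 13.7 TPM, below all of them.

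The lowest levels of Dio3 came with Podofilox, Antimycin A and Cardamonin. Podofilox gave 7.14, 7.06 and 7.04 TPM. Antimycin A gave 6.01, 6.28 and 4.16 TPM. Cardamonin gave 2.96, 2.55 and 2.02 TPM, the lowest of the 9 groups. The order of mean levels was therefore DMSO, AEG 3482, Dihydrorotenone, Diphenyleneiodonium Cl, BerberineA, Clofilium tosylate, Podofilox, Antimycin A and Cardamonin. Neighbours in it overlapped only between Dihydrorotenone and Diphenyleneiodonium Cl and between Diphenyleneiodonium Cl and BerberineA.

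**Figure D1:**
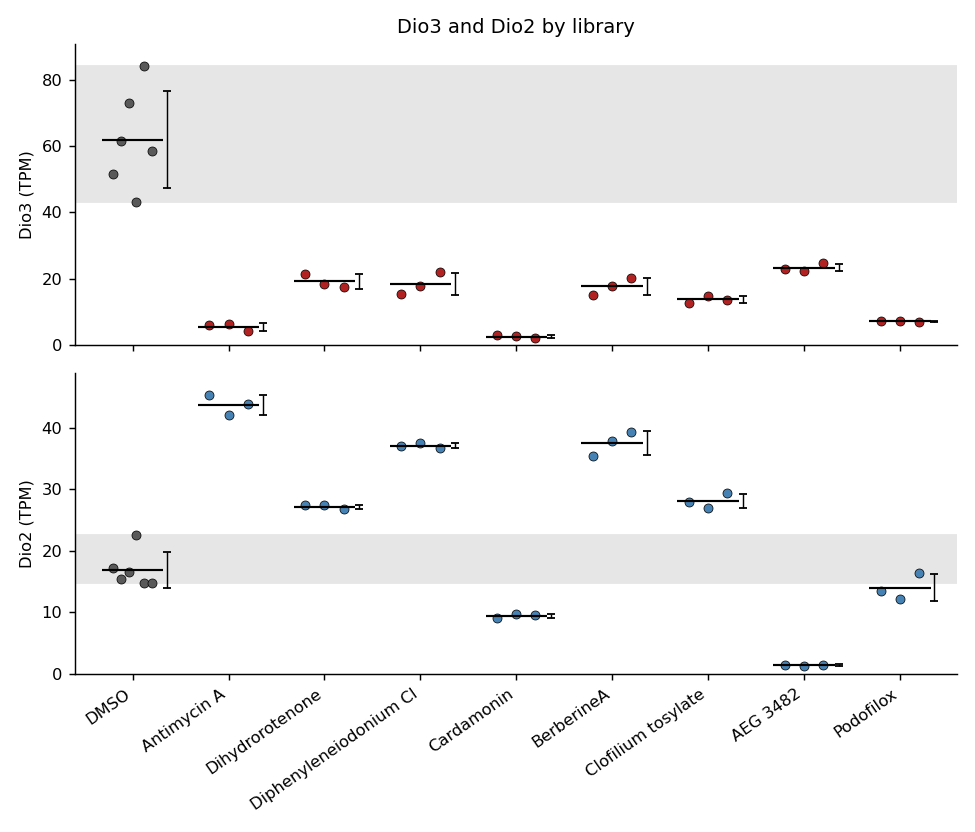
Level of Dio3 (upper) and Dio2 (lower) in TPM in each library of the 9 groups. Points are libraries, horizontal lines are group means, the error bar beside each group is 1 SD, and the grey band is the range of the 6 DMSO libraries; all 24 treated libraries are below the band for Dio3, while Dio2 is above it with 5 compounds, below it with 2 and overlaps it with Podofilox.

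As ratios of mean TPM, Dio3 was 24.7-fold lower than DMSO (61.9 ± 14.7 TPM, SD, n = 6) with Cardamonin and 11.3-fold lower with Antimycin A. It was 8.74-fold lower with Podofilox, 4.50-fold with Clofilium tosylate, 3.50-fold with BerberineA, 3.37-fold with Diphenyleneiodonium Cl, 3.24-fold with Dihydrorotenone and 2.65-fold with AEG 3482. On the log2(TPM + 1) scale used for all fits, which understates the change of low genes, the difference ran from -1.34 with AEG 3482 to -4.14 with Cardamonin (SE 0.15). These contrasts chose the gene and nothing is read from them beyond the values. Of the 13644 genes tested, 3 (0.0220%) were at least 2-fold lower on this scale with all 8 compounds. Ordered by the smallest of their 8 falls, these were Dio3 (-1.34), the chemokine gene Ccl20 (-1.14) and the predicted gene Gm21738 (-1.10). The genes just outside the threshold were Palmd (-0.96) and Lgr5 (-0.92). At least 2-fold lower genes made up 1.15% of those tested with Antimycin A, 0.198% with Dihydrorotenone, 0.388% with Diphenyleneiodonium Cl, 9.09% with Cardamonin, 0.293% with BerberineA, 0.396% with Clofilium tosylate, 5.94% with AEG 3482 and 2.12% with Podofilox.

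Markers of macrophages and several markers of fibroblasts moved in the same direction as Dio3. The summed level of the 5 macrophage markers was 153.6 to 209.9 TPM in DMSO. The treated libraries were all lower, from 53.0 to 67.3 TPM with Antimycin A up to 109.7 to 129.2 TPM with Cardamonin and 117.6 to 123.4 TPM with Dihydrorotenone. Lyz2, the lysozyme gene, made up most of the sum, with a mean of 157 TPM in DMSO, and Adgre1, which encodes the macrophage antigen F4/80, had 10.4 TPM. Both passed the threshold as lower with all 8 compounds, as 1.31% of all tested genes did. Cd68 rose with Cardamonin and BerberineA, and Ptprc, the gene of the pan-leukocyte antigen CD45, was at 0.722 TPM in DMSO. Of the 10 fibroblast markers, Lum, a matrix proteoglycan gene, and Thy1, which encodes a surface antigen, also fell with all 8 compounds. The collagen gene Col3a1 fell with 7 and rose with AEG 3482 (0.80), and the decorin gene Dcn fell with 7 and rose with Podofilox (0.24). All 10 fell with Cardamonin, 8 with Antimycin A, and 7 with AEG 3482 and with Podofilox. With Diphenyleneiodonium Cl and with Clofilium tosylate 5 fell, and with Dihydrorotenone and with BerberineA 4. In the same order 33.0%, 15.5%, 26.8%, 20.0%, 11.7%, 12.5%, 9.43% and 9.16% of all tested genes fell. Vim, the vimentin gene, rose with 6 compounds. The summed level of the 10 was 10770 to 12150 TPM with AEG 3482, reaching above the 9759 to 11280 TPM of DMSO. In bulk RNA, fewer cells of a type and less RNA per cell cannot be told apart, and the part of these cells in the Dio3 levels was not tested.

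Dio2 did not follow Dio3: its level rose with 5 compounds and fell with 3. Dio2 (ENSMUSG00000007682) lies at chr12:90724552-90738438 on the minus strand, outside the imprinted domain. In DMSO its level ran from 14.7 TPM through a median of 15.9 to 22.6 TPM. The highest of these values was DMSO replicate 4, which also had the lowest Dio3 of the DMSO libraries. The model was limma's moderated test on log2(TPM + 1) with Benjamini-Hochberg adjustment over all 13644 genes of a comparison, and a gene is said to have changed at an adjusted p under 0.05.

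With Antimycin A, Dio2 was at 45.3, 42.0 and 43.9 TPM, the highest of the 9 groups, and all 3 libraries were above the DMSO range. The log2 fold change was 1.34 (SE 0.09, adjusted p = 1.86e-11, where 37.3% of all tested genes changed and 31.0% had all 3 libraries outside the DMSO range). Diphenyleneiodonium Cl gave 37.0, 37.5 and 36.7 TPM and a log2 fold change of 1.11 (adjusted p = 1.71e-09; 25.7% of genes changed, 24.5% outside the DMSO range). BerberineA gave 35.4, 37.9 and 39.2 TPM and a log2 fold change of 1.12 (adjusted p = 3.87e-09; 21.7% changed, 19.1% outside the range). The mean Dio2 level was thus 2.2 to 2.6 times that of DMSO with these 3 compounds, while Dio3 was lower.

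Smaller rises of Dio2 were seen with Clofilium tosylate and Dihydrorotenone. Clofilium tosylate gave 27.9, 27.0 and 29.4 TPM and a log2 fold change of 0.72 (adjusted p = 1.98e-06; 23.4% of genes changed, 20.8% outside the DMSO range). Dihydrorotenone gave 27.3, 27.4 and 26.8 TPM and a log2 fold change of 0.67 (adjusted p = 2.08e-05; 14.4% of genes changed, 14.9% outside the range). With both, every library was above the DMSO range.

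Dio2 fell with AEG 3482 and Cardamonin, with which Dio3 was lower too. With AEG 3482, Dio2 was at 1.47, 1.21 and 1.45 TPM, 12.3-fold below the DMSO mean of 16.9 TPM, with a log2 fold change of -2.90 (adjusted p = 3e-19; 68.1% of genes changed, 58.9% outside the DMSO range). With Cardamonin it was at 9.11, 9.66 and 9.53 TPM, with a log2 fold change of -0.76 (adjusted p = 4.1e-08; 70.3% changed, 61.6% outside the range). With both compounds most tested genes changed, so a call there does not set Dio2 apart. Podofilox gave 13.4, 12.2 and 16.4 TPM, which overlapped DMSO, and a log2 fold change of -0.25 (adjusted p = 0.0287; 46.2% of genes changed). That call was lost without Podofilox replicate 1 (-0.22, adjusted p = 0.102) and without Podofilox replicate 2 (-0.16, adjusted p = 0.22), and when Podofilox and DMSO were fitted alone (-0.25, adjusted p = 0.157). Without DMSO replicate 4 the change was -0.16 (adjusted p = 0.0482), and over all alternatives the adjusted p ran from 0.00469 to 0.22.

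Direct contrasts between compounds, whose differences do not use the DMSO means, separated Dio2 further. The DMSO libraries still enter the spread that the fit shares over all groups, and with it the p-values. Dio2 differed in 24 of the 28 pairs of compounds, where the share of all genes that changed ran from 0.623% to 67.1% over the pairs. Against Cardamonin it was 64.2% for Antimycin A, 67.1% for Dihydrorotenone, 65.4% for Diphenyleneiodonium Cl, 65.5% for BerberineA, 65.1% for Clofilium tosylate and 57.8% for Podofilox. Against AEG 3482 it was 64.4% for Antimycin A, 65.4% for Dihydrorotenone, 64.3% for Diphenyleneiodonium Cl, 63.9% for BerberineA, 64.4% for Clofilium tosylate and 60.3% for Podofilox. Against Podofilox the same 5 compounds had 41.4%, 45.2%, 42.7%, 42.6% and 39.1%. Among those 5 the shares were small, 15.5% between Antimycin A and Dihydrorotenone, 5.21% between Antimycin A and Clofilium tosylate, 3.68% and 1.51% between Dihydrorotenone and Diphenyleneiodonium Cl or BerberineA, and 3.15% and 2.81% between Clofilium tosylate and those same 2 compounds. The 4 pairs that did not pass were Antimycin A and Diphenyleneiodonium Cl (log2 difference 0.23, 95% interval 0.017 to 0.448, adjusted p = 0.215; 6.04% of genes changed), Antimycin A and BerberineA (0.22, 0.001 to 0.432, adjusted p = 0.224; 9.04%), Dihydrorotenone and Clofilium tosylate (-0.04, -0.26 to 0.171, adjusted p = 0.904; 2.46%), and Diphenyleneiodonium Cl and BerberineA (-0.02, -0.232 to 0.2, adjusted p = 0.984; 0.623%). Cardamonin and AEG 3482, the 2 compounds with the most changed genes, differed in Dio2 by 2.14 (adjusted p = 1.12e-14; 55.3% of genes changed), with the lower level in AEG 3482.

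The balance of the 2 deiodinase transcripts turned over with 7 compounds. In DMSO the ratio of Dio3 to Dio2 TPM was 3.83 ± 1.29 (SD, n = 6), from 1.91 to 5.70, so Dio3 exceeded Dio2 in every DMSO library. The mean ratio was 0.126 with Antimycin A, 0.267 with Cardamonin, 0.470 with BerberineA, 0.491 with Clofilium tosylate, 0.496 with Diphenyleneiodonium Cl, 0.513 with Podofilox and 0.704 with Dihydrorotenone, and Dio2 exceeded Dio3 in each of their libraries. AEG 3482 went the other way, with a ratio of 15.7 to 18.6, above every DMSO library, as Dio2 was lower by a larger factor than Dio3. The ratios include Dio3, which was chosen on these contrasts, and carry no test. Over the 30 libraries Dio2 and Dio3 had a Pearson r of -0.07 on the log2(TPM + 1) scale, a description over libraries that share groups and library totals.

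**Figure D2:**
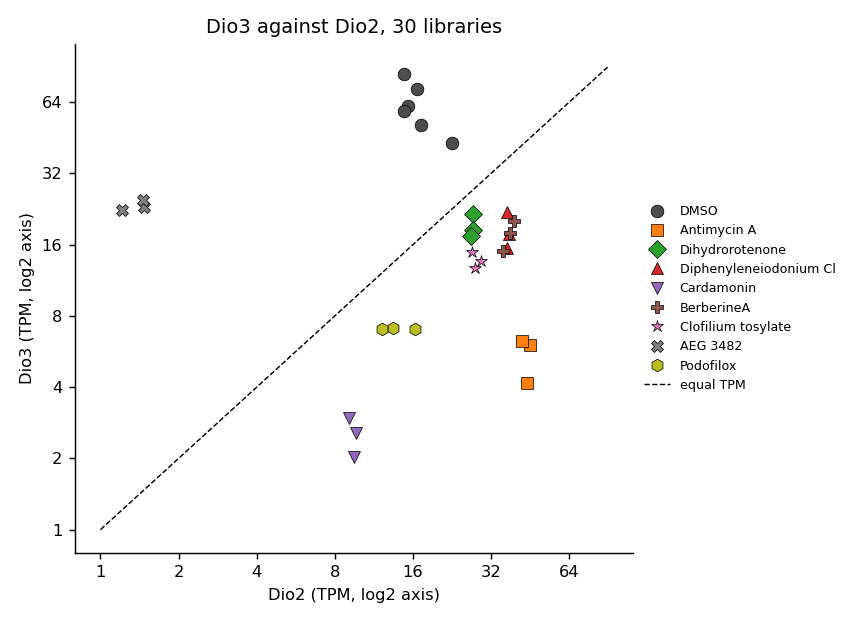
Dio3 against Dio2 in TPM on log2 axes, 1 point per library, with symbols for the 9 groups and a dashed line where the levels are equal. The 6 DMSO libraries and the 3 AEG 3482 libraries are above the line, and the 21 libraries of the other 7 compounds are below it.

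Dlk1, the paternally expressed gene at the other end of the domain, did not follow Dio3. Dlk1 encodes a transmembrane protein related to Notch ligands that restrains adipocyte differentiation. It lies at chr12:109452823-109463336 on the plus strand (ENSMUSG00000040856). In DMSO its level ran from 23.9 TPM through a median of 27.7 to 30.3 TPM. With Cardamonin, where Dio3 was lowest, Dlk1 was at 24.4, 23.0 and 25.9 TPM. With Antimycin A it was at 29.1, 27.3 and 29.9 TPM. The libraries of every compound overlapped the DMSO range.

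Group means of Dlk1 ran only from 24.5 TPM with Cardamonin to 30.4 TPM with Clofilium tosylate, and none of the 8 compounds passed the threshold against DMSO in limma. None had an unadjusted p under 0.05 either (0 of 8). The log2 fold changes ran from -0.15 (95% interval -0.334 to 0.027, adjusted p = 0.122) with Cardamonin to 0.15 (-0.035 to 0.326, adjusted p = 0.258) with Clofilium tosylate. All 8 intervals lay between -0.334 and 0.326, and they measure only the spread between these libraries. The Cardamonin value passed with quantile normalization (-0.21, adjusted p = 0.0275) and with the replicate number as a block (-0.22, adjusted p = 0.0388). Of the 28 direct contrasts 5 passed, all with Dlk1 lower in Cardamonin: against Clofilium tosylate (-0.30, adjusted p = 0.0119; 65.1% of genes changed), Diphenyleneiodonium Cl (adjusted p = 0.0172; 65.4%), AEG 3482 (-0.29, adjusted p = 0.0182; 55.3%), BerberineA (-0.25, adjusted p = 0.0351; 65.5%) and Dihydrorotenone (adjusted p = 0.0411; 67.1%).

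Rtl1, an imprinted gene derived from a retrotransposon and needed in the placenta, is the third domain gene with a row. It lies at chr12:109589193-109600330 on the minus strand (ENSMUSG00000085925). Its level was below 1 TPM in all 30 libraries, so it did not pass the filter. In DMSO it ran from 0.499 TPM through a median of 0.582 to 0.721 TPM. It was 0.157, 0.180 and 0.166 TPM with Cardamonin and 0.199, 0.203 and 0.256 TPM with Antimycin A. With these 2 compounds and with Dihydrorotenone (0.241 to 0.341 TPM), Diphenyleneiodonium Cl (0.264 to 0.402 TPM), BerberineA (0.327 to 0.441 TPM) and Clofilium tosylate (0.340 to 0.425 TPM), all libraries were below the DMSO range. Of all tested genes, 61.6%, 31.0%, 14.9%, 24.5%, 19.1% and 20.8% had all 3 libraries outside the DMSO range in either direction, in the order given here from Cardamonin on. Those shares are of genes past the filter, which Rtl1 did not pass.

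AEG 3482 and Podofilox did not show the lower Rtl1 level. AEG 3482 gave 0.643, 0.669 and 0.700 TPM, which overlapped DMSO, and Podofilox gave 0.846, 0.733 and 0.793 TPM, above all 6 DMSO libraries. With Podofilox 38.5% of all tested genes had all 3 libraries outside the DMSO range. In a fit of 22893 genes with no filter on low values, Rtl1 fell with Cardamonin (log2 fold change -0.44, adjusted p = 2.46e-09; 46.0% of these genes changed), Antimycin A (-0.38, adjusted p = 2.14e-07; 22.4%), Dihydrorotenone (-0.30, adjusted p = 7e-05; 8.02%), Diphenyleneiodonium Cl (-0.23, adjusted p = 0.000288; 14.9%), Clofilium tosylate (-0.19, adjusted p = 0.00207; 13.4%) and BerberineA (-0.18, adjusted p = 0.00338; 12.5%). It rose with Podofilox (0.18, adjusted p = 0.00162; 27.9%) and did not pass with AEG 3482 (0.08, adjusted p = 0.137; 43.8%). The pseudocount of 1 exceeds every Rtl1 value, and as ratios of means the level was 3.48-fold lower with Cardamonin and 2.66-fold lower with Antimycin A. Of the 31-base stretches of the Rtl1 transcript, 6.76% also occur in transcripts of 31 other genes, and microRNA genes such as Mir431 and Mir127 lie on its opposite strand. Whether the quantification used strand is not given in the sources used here.

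Meg3 (ENSMUSG00000021268, chr12:109541001-109571726), Rian (ENSMUSG00000097451, chr12:109603940-109661716) and Mirg (ENSMUSG00000097391, chr12:109729764-109749460), the maternally expressed non-coding genes on the plus strand, have no row in the table used here. Of the 118 genes annotated in the 828.3 kb from Dlk1 to Dio3, 3 had a row, and these were the 3 protein-coding ones. The others include 67 microRNA, 23 snoRNA and 12 lincRNA genes. The table has 35 lincRNA genes in all beside 21398 protein-coding genes. The maternal side of the domain was therefore not analysed here.

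**Figure D3:**
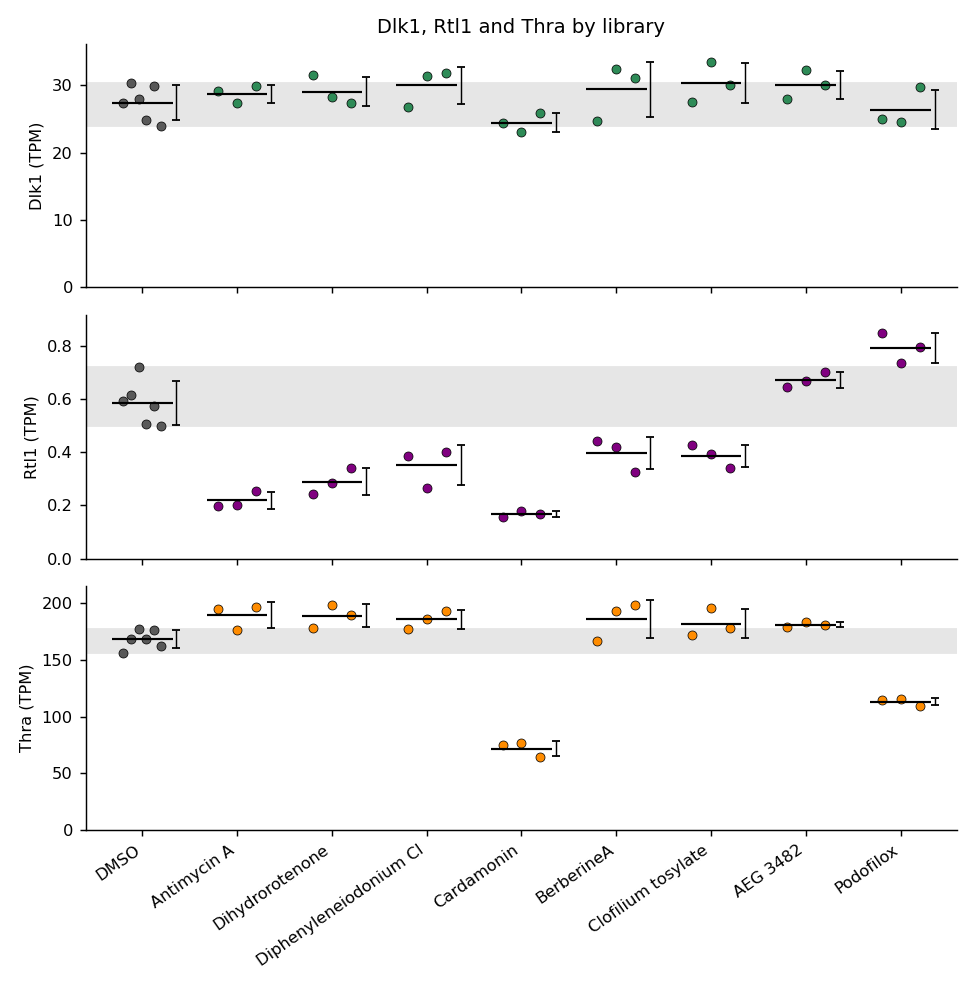
Levels of Dlk1, Rtl1 and Thra in TPM in each library of the 9 groups, with group means as horizontal lines, 1 SD as the error bar beside each group, and the range of the 6 DMSO libraries as a grey band. Every group overlaps the band for Dlk1, 6 groups are below it for Rtl1, and Cardamonin and Podofilox are below it for Thra.

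The genes that flank the domain showed no common fall. From 1 Mb before Dlk1 to 1 Mb after Dio3 the table has 24 genes outside the domain, of which 20 were tested. Of these 20, 3 rose and 2 fell with Antimycin A, 0 and 1 with Dihydrorotenone, 1 and 1 with Diphenyleneiodonium Cl, 3 and 0 with BerberineA, and 2 and 1 with Clofilium tosylate. With Cardamonin 11 rose and 3 fell, with AEG 3482 12 rose and 1 fell, and with Podofilox 7 rose and 3 fell. The median log2 fold change of the 20 was 0.31 with Cardamonin, 0.37 with AEG 3482 and 0.17 with Podofilox, beside 0.03, 0.10 and 0.04 over all tested genes, and it was between -0.05 and 0.03 with the other 5. Of all tested genes, 21.8% rose and 15.5% fell with Antimycin A, 4.95% and 9.43% with Dihydrorotenone, 14.0% and 11.7% with Diphenyleneiodonium Cl, 12.6% and 9.16% with BerberineA, and 10.9% and 12.5% with Clofilium tosylate. The shares were 37.3% and 33.0% with Cardamonin, 41.3% and 26.8% with AEG 3482, and 26.2% and 20.0% with Podofilox. This balance depends on the scaling of the libraries. With Dihydrorotenone, higher genes made up 34.4% of the calls here, 53.8% with median-ratio scaling and 47.2% with quantile normalization, and with Antimycin A they made up 58.6%, 53.0% and 49.3%.

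The flanking genes with the largest changes were Hsp90aa1, Wars, Slc25a47 and Evl. Hsp90aa1, the stress-inducible cytosolic chaperone gene whose start is 423.7 kb beyond that of Dio3, rose from a mean of 210.2 TPM in DMSO to 714 TPM with Cardamonin (log2 fold change 1.76, adjusted p = 6.53e-18) and 448 TPM with AEG 3482 (1.09). Wars, which encodes tryptophanyl-tRNA synthetase, rose with Cardamonin by 1.03. The mitochondrial carrier gene Slc25a47 rose with AEG 3482 by 0.81, and Evl, an actin regulator gene, rose with Podofilox by 0.77. The 2 genes nearest to the domain on either side, singled out after their values were seen, were Begain and Ppp2r5c. Begain fell with Cardamonin (-0.63, adjusted p = 8.75e-05) and Podofilox (-0.74, adjusted p = 2.57e-05). Ppp2r5c, a regulatory subunit of protein phosphatase 2A, fell with Cardamonin (-0.61, adjusted p = 9.73e-11), Podofilox (-0.21) and AEG 3482 (-0.14), and neither passed with the other compounds.

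**Figure D4:**
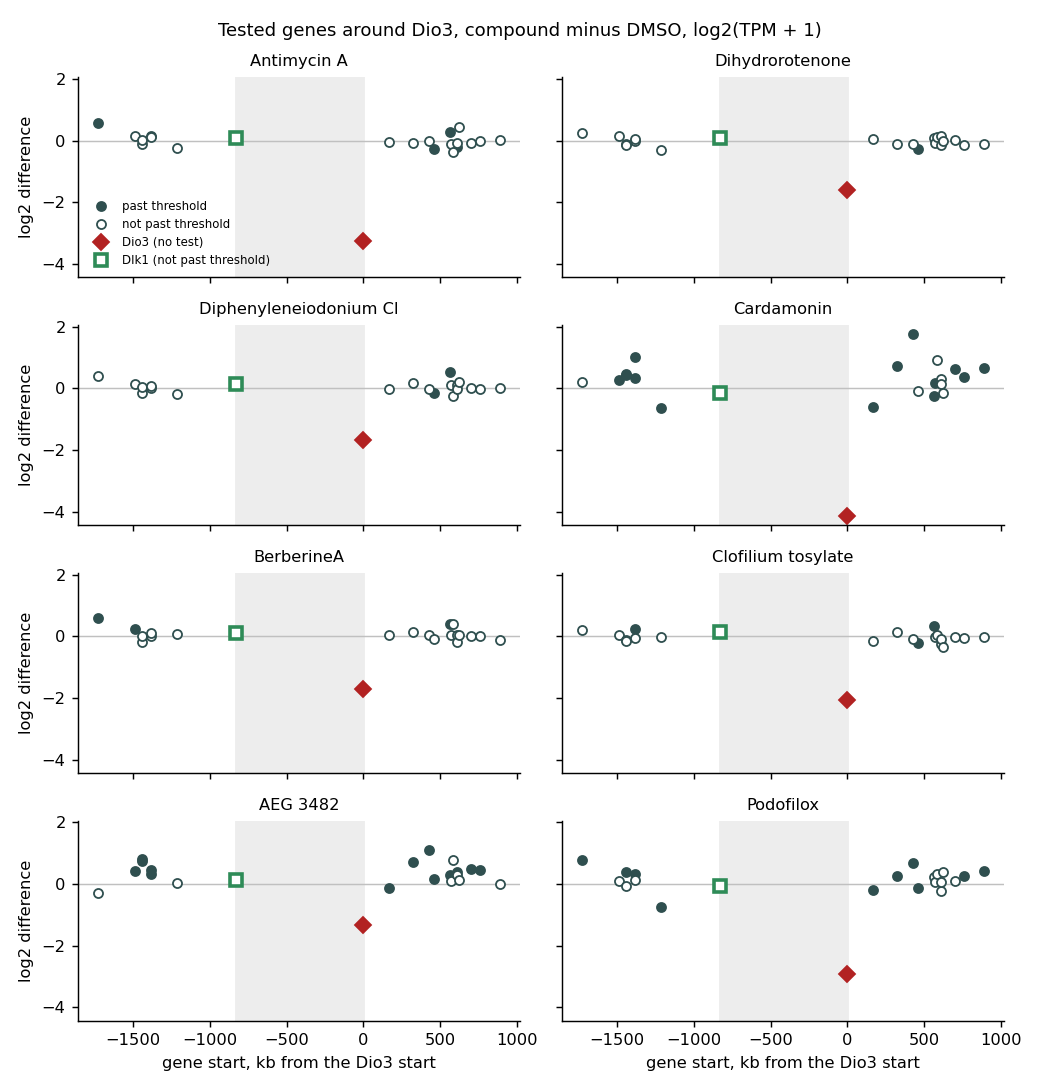
Log2 fold change against DMSO, on the log2(TPM + 1) scale, of the tested genes around Dio3, by the distance of the gene start from the Dio3 start in kb, 1 panel per compound. The shaded span runs from Dlk1 to Dio3, filled circles passed the threshold, open circles did not, and the red diamond is Dio3, which was not tested; in all 8 panels Dio3 is the lowest point while Dlk1, the green square, is near 0.

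Thra, the gene of the alpha thyroid hormone receptor, fell with Cardamonin and Podofilox. It lies at chr11:98740638-98769006 on the plus strand (ENSMUSG00000058756). In DMSO its level ran from 156.5 TPM through a median of 168.6 to 177.5 TPM, well above that of either deiodinase gene. Cardamonin gave 74.6, 76.4 and 64.0 TPM and a log2 fold change of -1.22 (SE 0.06, adjusted p = 1.16e-15). Podofilox gave 114, 116 and 109.6 TPM and a log2 fold change of -0.57 (adjusted p = 1.8e-08). The libraries of both were below all DMSO libraries. Of all tested genes, 61.6% with Cardamonin and 38.5% with Podofilox had all 3 libraries outside the DMSO range.

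With the other 6 compounds the group means of Thra were 181 to 189.5 TPM, somewhat above the DMSO mean of 168.3 TPM. Antimycin A passed, with 195, 176.5 and 197 TPM and a log2 fold change of 0.17 (adjusted p = 0.0272). That call was lost with quantile normalization (adjusted p = 0.109), with the replicate block (0.0523) and without Antimycin A replicate 1 (0.118), Antimycin A replicate 3 (0.131) or DMSO replicate 1 (0.0589). The other 5 did not pass. All 3 libraries of Dihydrorotenone (0.17, adjusted p = 0.0634) and of AEG 3482 (0.11, adjusted p = 0.118) were above the DMSO range. Of all tested genes, 14.9% with Dihydrorotenone and 58.9% with AEG 3482 had all 3 libraries outside that range in either direction. Of the 28 direct contrasts 13 passed, and each of them involved Cardamonin or Podofilox. The share of all genes that changed was 55.3% to 67.1% over the pairs with Cardamonin. Over the pairs with Podofilox it was 39.1% to 60.3%. Thra was lower with Cardamonin than with Podofilox by a log2 difference of -0.66 (adjusted p = 8.31e-09; 57.8% of genes changed).

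Exons of Thra overlap those of Nr1d1, the gene of the circadian repressor REV-ERB alpha, on the opposite strand. Nr1d1 was at 59.7 TPM in DMSO and changed only with AEG 3482 (0.31, adjusted p = 0.0281). Its difference with Cardamonin was -0.27 (adjusted p = 0.0513). Thrb, which encodes the beta receptor, was at 4.75 TPM in DMSO and changed only with Cardamonin (0.19, adjusted p = 0.0208). Dio1, the gene of the third deiodinase, was at 0.00445 TPM in DMSO.

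Genes of thyroid hormone uptake and response changed in both directions. Of a list of 30 such genes, 20 were tested beside Dio3, Dio2 and Thra being among them. With Cardamonin 8 rose and 6 fell, with AEG 3482 7 and 7, with Podofilox 7 and 4, and with Antimycin A 8 and 5. With Diphenyleneiodonium Cl 5 rose and 2 fell, with BerberineA 4 and 1, with Clofilium tosylate 4 and 0, and with Dihydrorotenone 2 and 1. Those changed were 14 of 20 with Cardamonin and with AEG 3482, 3 with Dihydrorotenone, 5 with BerberineA and 4 with Clofilium tosylate, near the 70.3%, 68.1%, 14.4%, 21.7% and 23.4% of all tested genes. They were 13 of 20 with Antimycin A, 7 with Diphenyleneiodonium Cl and 11 with Podofilox, beside 37.3%, 25.7% and 46.2% of all tested genes. The median log2 fold change of the list lay between -0.01 and 0.16, beside -0.03 to 0.10 over all tested genes.

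Among the transporters, Slc16a10, an aromatic amino acid and thyroid hormone transporter, rose with 7 compounds and most with Podofilox (0.917 TPM in DMSO, 6.39 TPM with Podofilox, log2 fold change 1.95), but fell with AEG 3482 (-0.33). Slc7a5, the light chain of an amino acid exchanger that also carries thyroid hormone, rose with 5 compounds, most with Cardamonin (6.83 to 31.7 TPM, 2.08), and fell with Dihydrorotenone (-0.40) and Diphenyleneiodonium Cl (-0.35).

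Among the response genes, Hr, a corepressor gene induced by thyroid hormone in brain, fell with 5 compounds. Its level was 6.63 TPM in DMSO, 1.57 TPM with Cardamonin (-1.57, adjusted p = 8.01e-13) and 1.60 TPM with AEG 3482 (-1.55, adjusted p = 1.83e-12), but 11.1 TPM with Podofilox (0.66, adjusted p = 1.24e-05). Klf9, another hormone-responsive transcription factor gene and one singled out after its values were seen, rose with 6 compounds, from 17.1 TPM in DMSO to 44.2 TPM with Podofilox (1.32, adjusted p = 8.99e-14). It did not pass with Dihydrorotenone (0.20, adjusted p = 0.0678) or AEG 3482 (-0.12, adjusted p = 0.138).

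Dio3 and Dio2 are selenoproteins, and the other genes of that family did not share 1 direction. Of 24 listed selenoprotein genes, 21 were tested beside Dio3. With Cardamonin 3 rose and 12 fell, and the median was -0.21 beside 0.03 over all tested genes. With AEG 3482 8 rose and 8 fell, and with Podofilox 5 and 5. With Antimycin A 6 rose and 4 fell, with Dihydrorotenone 3 and 4, with Diphenyleneiodonium Cl 3 and 5, with BerberineA 4 and 5, and with Clofilium tosylate 5 and 5. Dio2 is among these counts. The changed share was 71.4% with Cardamonin, 76.2% with AEG 3482 and 47.6% with Podofilox, near the 70.3%, 68.1% and 46.2% of all tested genes. With Antimycin A and Clofilium tosylate it was 47.6%, beside 37.3% and 23.4%, with BerberineA 42.9% beside 21.7%, with Diphenyleneiodonium Cl 38.1% beside 25.7%, and with Dihydrorotenone 33.3% beside 14.4%.

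Txnrd1, the cytosolic thioredoxin reductase gene, rose from 60.5 TPM in DMSO to 416 TPM with Cardamonin (log2 fold change 2.77, adjusted p = 7.63e-21) and 399 TPM with AEG 3482 (2.71, adjusted p = 1.99e-20). It also rose with Podofilox (129.8 TPM) and fell with Dihydrorotenone (47.6 TPM) and BerberineA (44.2 TPM). Gpx3, the gene of a secreted glutathione peroxidase, fell from 1444 TPM in DMSO to 304.5 TPM with Cardamonin (-2.29, adjusted p = 6.56e-16) and to 566 TPM with AEG 3482 (-1.35). Sephs2, which makes the selenium donor for selenocysteine, rose with Cardamonin by 1.17. Selenoh, a nuclear selenoprotein gene, fell by 1.12 with Cardamonin on the log2 scale and also fell with AEG 3482 (26.0 TPM in DMSO, 13.5 TPM with AEG 3482). It rose with 5 other compounds, by up to 0.48 with Antimycin A.

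The machinery that inserts selenocysteine changed in both directions. All 9 listed genes were tested, and with Cardamonin 4 rose and 2 fell, with AEG 3482 3 and 3, with Antimycin A 2 and 2, with Diphenyleneiodonium Cl 2 and 2, with BerberineA 2 and 1, with Podofilox 1 and 2, with Dihydrorotenone 1 and 1, and with Clofilium tosylate 0 and 1. In the same order 70.3%, 68.1%, 37.3%, 25.7%, 21.7%, 46.2%, 14.4% and 23.4% of all tested genes changed, so 6 of 9 with Cardamonin and with AEG 3482 is near the share of all genes. Secisbp2, whose protein binds the selenocysteine insertion element of messages such as Dio3, rose with Cardamonin (0.64, adjusted p = 4.37e-10). Trnau1ap, which associates with the selenocysteine tRNA, also rose with Cardamonin (0.55), and Sepsecs, the synthase that forms selenocysteine on its tRNA, fell there (-0.46). Scly, which recycles selenium from selenocysteine, rose with Antimycin A (0.44).

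**Figure D5:**
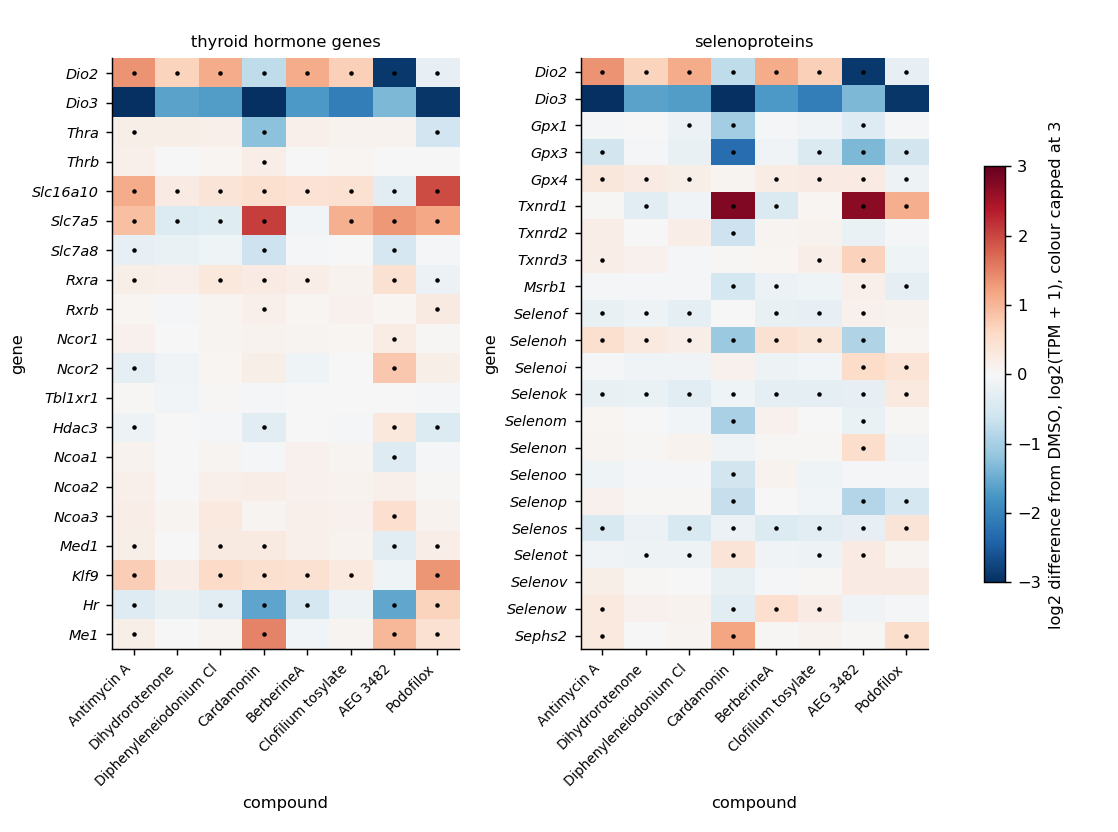
Log2 fold change against DMSO, on the log2(TPM + 1) scale, of tested genes of thyroid hormone action (left) and of the selenoproteins (right), with genes as rows and the 8 compounds as columns. Red is higher and blue lower, the colour is capped at 3, and a dot marks a gene past the threshold; Dio3 carries no dots because it was not tested, and it is blue in all 8 columns, whereas Dio2 is red in 5.

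More of the imprinted genes elsewhere in the genome fell than rose, with each of the 8 compounds and also with median-ratio scaling and quantile normalization. Of 30 listed, 25 had a row and 15 were tested. With Cardamonin 3 rose and 10 fell, with AEG 3482 6 and 7, with Podofilox 1 and 7, with Clofilium tosylate 1 and 8, with Antimycin A 1 and 6, with Diphenyleneiodonium Cl 1 and 4, with BerberineA 1 and 3, and with Dihydrorotenone 1 and 3. In the same order 33.0%, 26.8%, 20.0%, 12.5%, 15.5%, 11.7%, 9.16% and 9.43% of all tested genes fell, and 37.3%, 41.3%, 26.2%, 10.9%, 21.8%, 14.0%, 12.6% and 4.95% rose. Falls thus exceeded rises over all tested genes too with Clofilium tosylate and Dihydrorotenone. The median log2 fold change of the 15 ran from -0.30 with Cardamonin to 0.03 with BerberineA, beside 0.03 and 0.02 over all tested genes. Plagl1, a transcription factor gene known to act on other imprinted genes, fell with all 8 compounds, as 1.31% of all tested genes did. Its level was 19.7 TPM in DMSO, 1.73 TPM with Cardamonin (-2.90, adjusted p = 1.81e-16) and 12.6 TPM with BerberineA (-0.59, adjusted p = 0.00145).

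Cdkn1c, the imprinted cyclin-dependent kinase inhibitor gene, rose with 6 compounds and fell with AEG 3482 (-1.39, adjusted p = 2.21e-14) and Cardamonin (-1.33, adjusted p = 3.09e-14). Nnat, which encodes a small membrane protein of neural cells, rose with AEG 3482 (1.63) and Cardamonin (1.34), as did the ubiquitin ligase gene Ube3a (12.1 and 8.43 TPM, against 3.88 TPM in DMSO). Igf2, a growth factor gene singled out after its values were seen, fell with 7 compounds, and its difference with Dihydrorotenone was -0.36 (adjusted p = 0.117).

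Dio3 is known to be induced by Hedgehog signalling and by TGF-beta, so components and readouts of those pathways were also listed. The list also holds the gene Hif1a. Of 19 genes 16 were tested, and with Cardamonin 5 rose and 9 fell, with Antimycin A 3 and 8, with AEG 3482 4 and 6, with Clofilium tosylate 2 and 5, with Podofilox 4 and 4, with Diphenyleneiodonium Cl 1 and 3, with BerberineA 1 and 3, and with Dihydrorotenone 1 and 2. In the same order 70.3%, 37.3%, 68.1%, 23.4%, 46.2%, 25.7%, 21.7% and 14.4% of all tested genes changed. The changed share of the 16 was thus above that of all genes with Cardamonin (87.5%), Antimycin A (68.8%) and Clofilium tosylate (43.8%) and near it with the other 5 (18.8% to 62.5%). Ccn2, a matricellular protein gene induced by TGF-beta, fell with 7 compounds, from 128 TPM in DMSO to 2.10 TPM with Cardamonin (-5.51, adjusted p = 1.74e-18) and 7.17 TPM with AEG 3482 (-3.96, adjusted p = 2.47e-15). With Dihydrorotenone the difference was -0.53 (adjusted p = 0.07).

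The ligand genes of TGF-beta moved apart. Tgfb3 fell with 5 compounds, most with Cardamonin (-1.61). Of the other ligand genes, named after their values were seen, Tgfb1 rose with 5 compounds, most with AEG 3482 (57.5 to 124 TPM, 1.10), and Tgfb2 rose with 6, most with Cardamonin (13.1 to 26.9 TPM, 0.98). Gli2, the Hedgehog transcription factor gene, fell with AEG 3482 (-1.23) and Cardamonin (-1.07), and its differences with the other 6 were -0.10 to 0.29 and did not pass. Gli1, which Hedgehog signalling induces, was at 0.110 TPM in DMSO and was not tested. Ptch1, the Hedgehog receptor gene, which the pathway also induces and which was named after its values were seen, was at 6.51 TPM in DMSO. It fell with 6 compounds, most with Antimycin A (-0.35, adjusted p = 0.000684), and did not pass with Clofilium tosylate (-0.17, adjusted p = 0.114) or AEG 3482 (-0.07, adjusted p = 0.43).

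The 5 tested genes whose log2(TPM + 1) most resembled that of Dio3 over the 30 libraries, among named genes with at least 5 TPM in DMSO, were Wnt5a (Pearson r 0.96), Tnn (0.952), Ccnd1 (0.948), Tmem173 (0.945) and Trib2 (0.943). Wnt5a encodes a secreted Wnt ligand, Tnn the matrix protein tenascin N, Ccnd1 cyclin D1, Tmem173 the DNA-sensing adaptor STING, and Trib2 a pseudokinase. Their group differences from DMSO were -0.56 to -1.92 for Wnt5a, -0.57 to -2.87 for Tnn and -0.63 to -2.06 for Ccnd1. They were -0.25 to -1.09 for Tmem173 and -0.45 to -1.36 for Trib2. Dio3 was chosen for its fall with every compound, so these sizes cannot be fairly compared with those of Dio3. For comparison, r with Dio3 was 0.60 for Thra and 0.28 for Dlk1. No r was calculated for Rtl1, which did not pass the filter and was lower with most compounds. These values describe libraries that share their groups and the 6 DMSO libraries, and they carry no test.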

How the data were processed

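RNA was measured in 30 libraries, 3 for each of 8 compounds and 6 for DMSO, grouped by the agent label of each sample. The 6 libraries labelled DMSO were all used, although 5 are given in the series text. The deposited table holds TPM made by the authors with kallisto and tximport, per the series text, which also names DESeq2 for their own tests. The submitters' processing notes name kallisto 0.43.1, FastQC and the build mm10. The transcript index and the strand setting are not given in the sources used here. The deposited rows sum to 92.7% to 93.7% of the full TPM total per library, and the rest belongs to features that are not listed.

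Gene identifiers were matched to GENCODE M21 (GRCm38), which gave a symbol and position for 29426 of 29861 genes. Values were transformed to log2(TPM + 1), and the 13644 genes that reached 1 TPM in 3 or more libraries were tested. All 30 libraries were fitted in limma 3.58.1 (R 4.3.3) with 1 mean per group and an intensity trend. Each compound was compared with DMSO, and the 28 pairs of compounds with each other. P-values were Benjamini-Hochberg adjusted over the genes of a comparison, with a threshold of 0.05. The code was tested on simulated data. Promoter windows, from 250 bases before to 50 after the RefSeq start, were found for Dio3, Dio2, Dlk1, Meg3, Rian and Mirg. Sequence sharing was counted as 31-base stretches of GENCODE transcripts.

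The 8 genes and the 6 gene lists (domain neighbours, thyroid hormone genes, selenoproteins, selenoprotein synthesis, other imprinted genes, reported Dio3 inputs) were chosen with earlier results of these data known. Up to 4 genes of each list were named, those with the largest absolute log2 fold change past the threshold in any compound, and genes named beside them are said to be so. Of the genes this rule names, 2 are not reported here, though the list counts include them. Like genes were the 5 with the highest Pearson r to Dio3. Alternatives were a pseudocount of 0.1, no filter, median-ratio scaling, quantile normalization, each compound fitted with DMSO alone, a replicate block, and leaving out each library in turn.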

Additional observations from a re-analysis of the deposited data

Results flagged for a closer look

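In DMSO replicate 4 the Dio2 level was 22.62 TPM, and the other 5 DMSO libraries lay between 14.7 and 17.2 TPM. Its gap to the nearest library was 0.691 of the range of the group, above Dixon's 95% critical value for 6 libraries, which chance passes in about 1 in 20 groups. The same library had the lowest Dio3 of the DMSO group, 43.1 TPM. The 5 listed genes with a row were examined in the DMSO group, and Dio3, Dlk1, Rtl1 and Thra had no such library. No Dio2 call was lost when this library was left out, and the Podofilox change was then -0.16 (adjusted p = 0.0482) in place of -0.25.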

How the results depend on the processing

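No call of Dio2, Dlk1 or Thra reversed its direction. Dio3 remained lower with all 8 compounds when each library was left out in turn. With a pseudocount of 0.1 its difference with Cardamonin was -4.55 on the log2 scale. Dio3 was chosen on these contrasts, so its direction was set in advance and these values are a description only. Of the 3 listed genes tested, 2 changed with Antimycin A and 1 did so with quantile normalization and with the replicate block, and leaving out 1 library gave 1 to 2 (Thra was the gene lost). With Dihydrorotenone 1 changed, and 2 did with median-ratio scaling (Thra, adjusted p = 0.00591) and with quantile normalization (0.0369). The larger side of all calls did turn with scaling: from lower to higher with Dihydrorotenone under median-ratio scaling (1031 higher, 887 lower), and from higher to lower with BerberineA (1498 and 1572) and, under quantile normalization, with Antimycin A (2561 and 2638), Diphenyleneiodonium Cl (1827 and 1997) and BerberineA (1570 and 1653). With BerberineA 1 changed, and leaving out 1 library gave 1 to 2 (2 without BerberineA replicate 1, Thra, adjusted p = 0.0154). With Podofilox 2 changed, 1 when Podofilox and DMSO were fitted alone, and leaving out 1 library gave 1 to 2 (Dio2, as given above). Same-numbered libraries showed little shared deviation (108 pairs, r from -0.107 to 0.151, median 0.008, 4 over 0.1). Differently numbered libraries gave similar values (216 pairs, r from -0.161 to 0.135, median 0.0008, 5 over 0.1). Of 27 libraries, 13 correlated best with their own number. With values this small the check cannot decide whether the replicate numbers pair the samples. Of the calls of Dio2, Dlk1 and Thra against DMSO, the replicate block moved those of Thra with Antimycin A and Dlk1 with Cardamonin; over all genes it moved the number changed by less than 1.5 times, for example from 1963 to 1680 with Dihydrorotenone. With a pseudocount of 0.1, chosen after seeing the data, the Rtl1 differences ran from -1.34 with Cardamonin to 0.39 with Podofilox. The calls summed over compounds of each gene list moved by less than 1.5 times. Depth is unknown, which limits what can be said of genes below 1 TPM such as Rtl1.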
